A study of Bos taurus with 81 samples.

Results

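The clustered H3K27ac domains of the bovine inner cell mass (ICM) are long autosomal intervals in which many peaks of acetylated histone H3 lysine 27 (H3K27ac) lie close together. Stretches covered by a peak in both ICM H3K27ac libraries were joined where they lay 12500 bp or less apart. Joined intervals of at least 20 kb with at least 8 kb covered were kept, on autosomes 1 to 29. This gave 2010 domains out of 18104 joined intervals (11.1%). The domains were thus chosen by ICM H3K27ac peaks, and their ICM H3K27ac values are given only as a description, without a test.

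H3K27ac is placed on nucleosomes beside active enhancers and promoters by the acetyltransferases p300 and CBP. Dense clusters of such peaks, often called super-enhancers or stretch enhancers, are known in many cell types for lying near genes of cell identity. H3K4me3 marks active promoters, H3K27me3 is laid down by the Polycomb complex PRC2 on silenced genes, H3K9me3 marks heterochromatin, and open chromatin lets a transposase in. In the blastocyst the ICM gives rise to the fetus and the trophectoderm to the placenta.

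Embryos were produced in vitro from bovine oocytes matured and fertilised in culture. The groups were germinal vesicle oocytes (GV), 2-cell embryos at 32 h after insemination (2C), 4-cell embryos at 44 h (4C), 8-cell embryos at 56 h (8C), morulae at 122 h (MO), blastocysts at 172 h (BL), and the ICM and the trophectoderm (TE) of blastocysts. A further group of 8-cell embryos (8A), also taken at 56 h, had grown in α-amanitin, an inhibitor of RNA polymerase II, at 50 μg/ml. The ICM was isolated by immunosurgery, which lyses the outer cells with antibody and complement, and the TE was cut off with a micro scalpel. Each library came from about 500 oocytes or 1000 to 1500 blastomeres, so every library pools many embryos. CUT&Tag, in which an antibody guides a transposase to a histone mark, gave 2 libraries per group for each of 4 marks. ATAC-seq, which reads open chromatin, gave 3 libraries each for BL, ICM and TE. Nothing in the labels says that replicates came from separate cultures, so p-values measure only the spread between these libraries, which may be technical.

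All values below are the percentage of a length that lies under the deposited peaks of a library. Sequencing depth is unknown, and the autosomal length of the lists ranged from 43.4 to 142 Mb for H3K27ac and from 37.7 to 176 Mb for H3K4me3. A library was therefore described by the log2 ratio of the covered share of the domains to the covered share of all other autosomal sequence. The other sequence includes gene-poor regions, so a ratio above 0 is not by itself particular to these domains. Whether the isolated ICM and TE carried these marks at their defining genes was not checked here, since no gene annotation of the build of the lists was used. For the same reason, domains are named by position in the ARS-UCD1.2 build and without genes.

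The 2010 domains summed to 101.9 Mb, or 4.10% of the autosomes. They held 41.9 of the 75.3 Mb covered in both ICM lists (55.6%). A domain was 20 to 253 kb long, with a median of 41.8 kb, and 145 domains reached 100 kb. The H3K27ac stretches inside a domain numbered 3 to 115, with a median of 15, and covered 8 to 115 kb with a median of 15.9 kb. The domains were therefore mostly gaps by length, with a median of 40.3% of a domain covered. Of the domains, 1002 (49.9%) had another within 100 kb, and the median gap to the next domain was 267 kb. The share expected without clustering was not computed.

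Density differed between chromosomes. Chromosome 19 held 133 domains (2.10 per Mb), chromosome 25 held 79 (1.87 per Mb) and chromosome 18 held 107 (1.63 per Mb). At the other end, chromosome 9 held 34 (0.325 per Mb), chromosome 27 held 16 (0.351 per Mb) and chromosome 20 held 26 (0.361 per Mb). The thresholds cut through a continuum. The shortest domain, chr12:21010801-21030800, was 20 kb long with 8.15 kb covered, while chr16:46697801-46717750, with 8.8 kb covered, was left out at 19.95 kb. The least covered domain, chr19:41726801-41747500, had 8 kb covered, and chr1:115393151-115431200 was left out with 7.95 kb. Length alone left out 263 intervals and cover alone 757.

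The domain with the most ICM H3K27ac, chr22:43122451-43320650, was 198 kb long with 115 kb covered in 77 stretches. Its H3K27ac was nearly absent from early embryos, at 0.43 and 0% in the 8C libraries, and stood at 43.9 and 40.7% in MO, 51.9 and 53.2% in TE and 66.2 and 64.4% in ICM. It also held 129 stretches open in all 3 ICM ATAC libraries, the most of any domain. A similar course was seen at chr7:60986401-61177450, with 114 kb covered, where the libraries gave 0.60 and 0.71% in 8C, 54.0 and 52.6% in MO, and 34.9 and 36.3% in TE. In contrast, chr10:21659001-21869550, with 112 kb covered, already had H3K27ac at 26.5 and 25.1% in GV and at 33.8 and 32.8% in 8C. The other 3 domains with the most shared ICM H3K27ac were chr5:103957251-104201400, chr3:8359001-8536250 and the longest domain of all, chr23:41488251-41741550. In these 3, TE H3K27ac ranged from 14.7 to 27.5% over both libraries, below the ICM range of 49.1 to 66.0%.

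The first comparison asked when in development the ICM domains carry H3K27ac. The share of the domains under H3K27ac peaks was low through cleavage and high from the morula on. Of the summed domain length, 15.2 and 16.1% lay under peaks in the GV libraries, 6.50 and 8.29% in 2C, 4.43 and 4.11% in 4C, and 13.1 and 12.1% in 8C. In MO the values were 37.0 and 34.2%, in BL 23.4 and 25.0%, and in TE 24.4 and 24.9%. Every library from MO on was above every earlier library, and the lowest values were those of 4C. The ICM libraries, which chose the domains, stood at 48.4 and 47.0%.

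Set against other autosomal sequence, the domains were enriched for H3K27ac in all groups. The log2 ratio was 1.66 ± 0.07 (SD, n = 2) in GV, 1.71 ± 0.04 in 2C, 1.37 ± 0.10 in 4C and 1.95 ± 0.09 in 8C. It reached 3.45 ± 0.08 in MO, 4.40 ± 0.10 in BL and 4.13 ± 0.05 in TE. Leaving out ICM and 8A, the difference among 7 groups exceeded the spread between libraries (permutation of labels, p = 2e-05, adjusted p = 3.5e-05 over 7 tests). The domains were chosen by ICM H3K27ac, and the ICM is part of the blastocyst. High H3K27ac in BL, and in MO and TE near it in development, is therefore not independent of that choice. From 8C to MO the ratio was higher by 1.50, which is 19.8 times the pooled SD of the groups (0.076). MO covered more of the domains than BL or TE but had the lower ratio, because its lists also covered more of the other autosomal sequence (3.25%, against 1.15% in BL and 1.41% in TE).

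**Figure D1:**
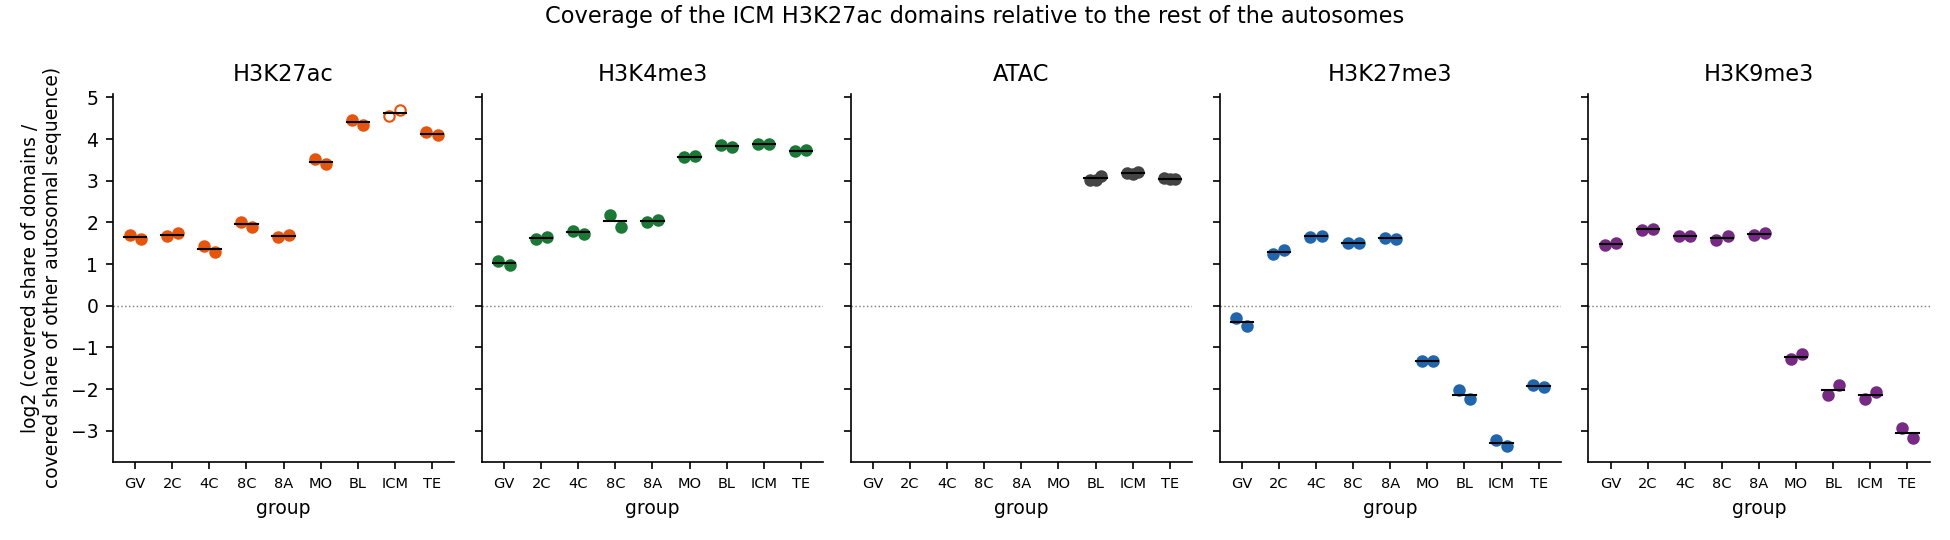
Log2 ratio of the covered share of the ICM H3K27ac domains to the covered share of other autosomal sequence (vertical axis) by group (horizontal axis), with a panel for each assay. Points are libraries, bars are group means, and open points are the ICM H3K27ac libraries that chose the domains. H3K27ac and H3K4me3 ratios lie above 3 from MO on, while H3K27me3 and H3K9me3 ratios are above 1 from 2C to 8A and below -1 from MO on.

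Single domains were called marked in a group where at least 25% of their length was under peaks in every library. The same call over all 124388 autosomal tiles of 20 kb serves as background, and the tiles are shorter than most domains. H3K27ac marked 410 of the 2010 domains in GV (5.71% of tiles), 80 in 2C (1.17% of tiles), 10 in 4C (0.321% of tiles) and 307 in 8C (2.97% of tiles). It marked 1338 in MO (4.47% of tiles), 776 in BL (1.82% of tiles) and 808 in TE (2.31% of tiles). In 4C the share of domains marked, 0.498%, was close to that of tiles. In the other groups the share of domains was above that of tiles, from 3.98% of domains in 2C to 66.6% in MO. Among the 11222 tiles outside the domains that held at least 1 kb of shared ICM H3K27ac, the marked share was 13.3% in GV, 8.77% in 8C, 15.5% in MO and 6.41% in TE, against 20.4, 15.3, 66.6 and 40.2% of the domains. These tiles are the nearer reference, although they hold less ICM H3K27ac than a domain. With all H3K27ac lists shortened to the same covered length, MO marked 517 domains, BL 613 and TE 576, so the order of these 3 counts depended on list length. The shortened lists marked 107 domains in GV and 154 in 8C. The small early counts also rested on single libraries, as 2C marked 157 domains without its replicate 1, and 4C marked 16 and 21 without its replicates 1 and 2.

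Many domains were marked in the morula and in no earlier group. H3K27ac marked 414 domains in MO alone of the 7 groups (2.06% of tiles), and 346 in MO, BL and TE but in no earlier group (0.663% of tiles). A further 398 domains were marked in none of the 7 groups (87.7% of tiles). Only a minority, 602 domains, was marked in any of GV, 2C, 4C and 8C (8.48% of tiles). GV and 8C shared 141 of these domains (0.873% of tiles), which is 34.4% of the GV domains and 45.9% of the 8C domains.

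**Figure D2:**
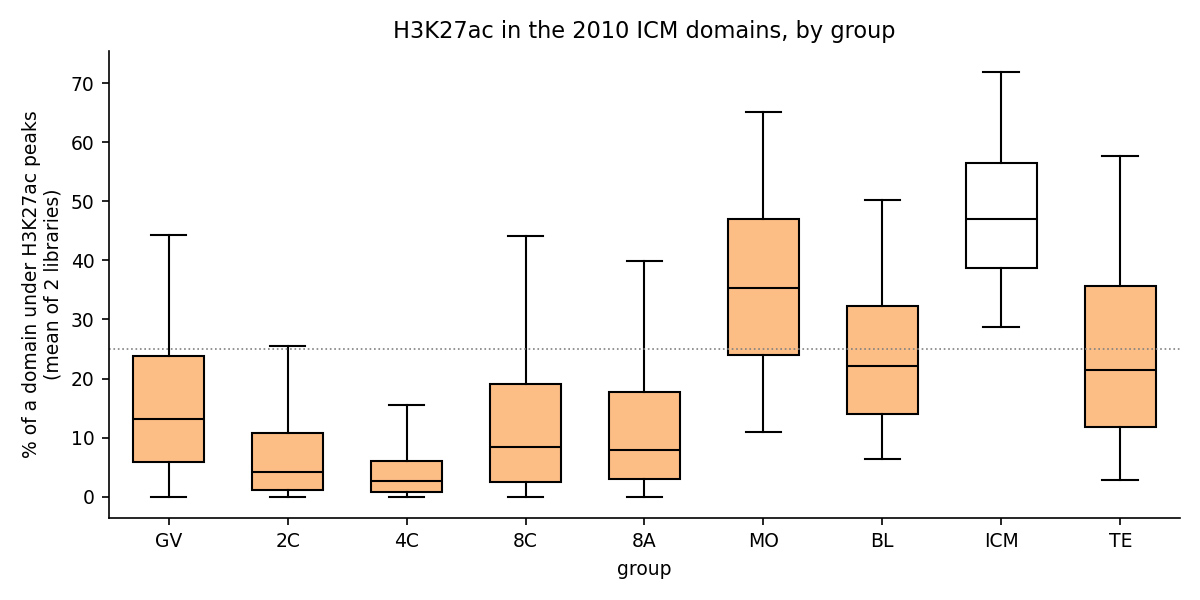
Percentage of each of the 2010 domains under H3K27ac peaks, mean of 2 libraries (vertical axis), by group (horizontal axis). Boxes span the 25th to 75th percentile with the median, whiskers the 5th to 95th, the dotted line is the 25% used to call a domain marked, and the white box is the ICM, which chose the domains. The median of the domains was 2.65% in 4C, 8.46% in 8C and 35.3% in MO.

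Some domains carried much more H3K27ac in the oocyte than in the 8-cell embryo, and others the reverse. At chr14:61621301-61655800, H3K27ac covered 72.5 and 75.7% in GV, 2.9 and 0% in 8C, and 51.9 and 53.6% in MO. At chr15:29502801-29529050 it covered 82.9 and 90.3% in GV, 12.8 and 10.5% in 8C, and 86.3 and 81.5% in TE. These domains were high in GV, low in 8C and high again from MO. The third domain with the highest GV H3K27ac, chr5:56910401-56940750, had 82.9 and 87.8% in GV and only 11.7 and 11.9% in TE. In the reverse order, chr18:60884351-60907050 had 15.9 and 16.5% in GV, 91.0 and 80.8% in 8C and 90.3 and 87.7% in TE. At chr7:6405351-6428500 H3K27ac peaked in 8C, with 79.9 and 76.0%, against 17.5 and 21.4% in GV and 30.0 and 20.1% in MO. At chr23:28351651-28380850 both GV (66.1 and 64.6%) and 8C (76.0 and 78.4%) were above TE (21.6% in both libraries).

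The 3 domains with the highest MO H3K27ac were almost filled by it. They were chr28:27450451-27476900 with 94.0 and 95.5%, chr3:16805201-16842900 with 93.1 and 92.4%, and chr2:125397201-125420350 with 89.8 and 91.8%. At the first, no peak was listed in 2C or 4C. At the third, H3K27ac covered 26.1 and 30.9% in BL, 32.0 and 30.0% in TE and 61.3 and 61.1% in ICM, all below MO.

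The 8A group asks how far the H3K27ac of the domains at the 8-cell stage depends on transcription. The domains were covered at 11.7% in both 8A libraries, against 13.1 and 12.1% in 8C. The log2 ratio was 1.68 ± 0.03 (SD, n = 2) in 8A and 1.95 ± 0.09 in 8C, a difference of -0.28 or 3.67 times the pooled SD. This pair was not tested, since 2 libraries against 2 cannot give a p below 0.333. H3K27ac marked 272 domains in 8A (3.14% of tiles). Of these, 136 were also marked in 8C (1.06% of tiles), while 171 were marked in 8C and not in 8A (1.91% of tiles), so both groups had domains that the other lacked. H3K4me3 in the domains had the ratio 2.03 in both groups, but it covered 8.70 and 7.72% of their length in 8A against 10.9 and 15.1% in 8C. It marked 122 domains in 8A (1.63% of tiles) and 239 in 8C (2.39% of tiles).

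The next comparison asked whether the domains are shared between ICM and TE. The same rule applied to the TE libraries gave 1119 TE domains, of which 833 (74.4%) touched an ICM domain. In turn, 817 ICM domains (40.6%) touched a TE domain. The morula gave 2291 domains by the rule, and 1363 ICM domains (67.8%) touched one of them. The GV oocyte gave 2640, more than any other group, yet 620 ICM domains (30.8%) touched one. Any overlap counted as a touch, and the domains summed to 53.3 Mb in TE, 116 Mb in MO and 124 Mb in GV. The share of touches expected from these lengths was not computed. The number of domains also depends on list length, as the ICM lists shortened to the common length gave 652.

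TE H3K27ac varied widely among the ICM domains. For a description, the domains were ordered by their mean TE H3K27ac and split into 4 groups of 503, 502, 503 and 502, with medians of 6.46, 16.7, 27.5 and 45.9%. No TE H3K27ac peak was listed in 41 domains in the first library and in 43 in the second. The 4 with the most shared ICM H3K27ac among those without a peak in both also had little open chromatin in TE. The first of them, chr17:50912051-50980950, had ATAC cover of 25.0, 28.4 and 22.6% in ICM and 3.6, 5.2 and 4.9% in TE. There H3K27me3 covered 73.7 and 74.5% in TE, 60.4 and 51.4% in BL, and was listed at 0 in both ICM libraries and both MO libraries. At chr21:2887401-2945300 TE H3K27me3 covered 14.2 and 16.9%, again with none in ICM. At chr10:13579651-13623550 it covered 15.9 and 15.5% in TE, and at chr17:7614951-7683900 no H3K27me3 peak was listed in any library. In all 4 domains every ICM ATAC library was above every TE library.

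The domains with the highest TE H3K27ac were almost filled by it in TE. They were chr3:20598051-20618150 with 95.3 and 95.0% in TE, chr17:60084701-60105150 with 90.2 and 88.3%, chr19:51594201-51644350 with 86.9 and 91.1%, and chr18:60884351-60907050 with the values above. The first had more H3K27ac in TE than in ICM (48.0 and 60.0%), although it was chosen in ICM. At chr19:51594201-51644350 ATAC cover was 67.7, 78.0 and 74.2% in TE and 45.3, 60.9 and 44.7% in ICM. The BL libraries there spread from 37.9 to 85.7%.

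Open chromatin was then compared, an assay that the choice of domains did not use, although they were chosen in ICM and not in TE. The domains were covered by ATAC peaks at 22.6, 26.2 and 22.5% in ICM, 21.5, 24.9 and 21.2% in TE, and 20.4, 26.2 and 30.9% in BL. The groups overlapped in these shares. The log2 ratio to other autosomal sequence was 3.19 ± 0.02 (SD, n = 3) in ICM, 3.05 ± 0.01 in TE and 3.05 ± 0.05 in BL, and all ICM libraries were above all TE and BL libraries. By an exact permutation test these ratios differed among the groups (p = 0.0357, adjusted p = 0.0417). That call was lost with the lists shortened to the same length (exact permutation test, adjusted p = 0.556) and without any single ICM library (adjusted p = 0.0833 for each of the 3, by the same exact test). It was also lost with labels permuted only within replicate numbers (exact permutation test, adjusted p = 0.13).

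H3K4me3 in the domains was also compared between ICM and TE. Its log2 ratio was 3.88 ± 0.01 (SD, n = 2) in ICM and 3.72 ± 0.02 in TE. The covered share of the domains had the other order, with 14.3 and 14.5% in ICM and 16.4 and 16.0% in TE. The ratio was higher in ICM because H3K4me3 covered less of the other autosomal sequence there (0.98%, against 1.23% in TE). Summed over ATAC and H3K4me3, the ratio was 0.29 higher in ICM than in TE, with all ICM libraries above all TE libraries in both assays (exact two-sided permutation test, p = 0.0167, the smallest the design allows, adjusted p = 0.0233). The joint test does not say which assay differs. With labels exchanged only within replicate numbers, the exact test gave an adjusted p of 0.0875, so the call was lost. The domains were chosen by H3K27ac peaks of ICM and not of TE, so an ICM excess is not independent of that choice.

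Domain by domain, ATAC favoured ICM more often than TE. Every ICM library was above every TE library in 709 domains (12.2% of tiles), and the reverse held in 358 (11.1% of tiles), or 550 without ICM replicate 2. Among the tiles with ICM H3K27ac outside the domains, the percentages were 30.6 and 16.6, near the 35.3 and 17.8% of the domains. The balance of the domains was therefore close to that of other sequence with ICM H3K27ac. For H3K4me3, ICM was above TE in 506 domains (2.42% of tiles) and TE above ICM in 884 (6.4% of tiles), but with lists of the same length these counts were 805 and 499, so their order depends on list length.

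ATAC followed the TE H3K27ac of the domains. In the group with the lowest TE H3K27ac, ATAC peaks covered 18.7, 22.0 and 18.8% of the summed length in ICM and 12.3, 14.4 and 12.1% in TE. In the group with the highest, they covered 26.0, 30.1 and 26.1% in ICM and 30.9, 35.8 and 30.5% in TE. The median difference, ICM minus TE, went from 6.24 percentage points in the lowest group through 2.99 and 0.28 to -4.64 in the highest, with 1.76 over all domains. Spearman's rho between TE H3K27ac and this difference was -0.62 over 2010 domains, as a description. ICM was above TE in 354, 218, 105 and 32 domains of the 4 groups (12.2% of tiles), and TE above ICM in 7, 29, 88 and 234 (11.1% of tiles). H3K4me3 had the same order, with ICM above TE in 226, 167, 81 and 32 domains (2.42% of tiles) and TE above ICM in 64, 154, 277 and 389 (6.4% of tiles). The tiles were not split by TE H3K27ac.

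**Figure D3:**
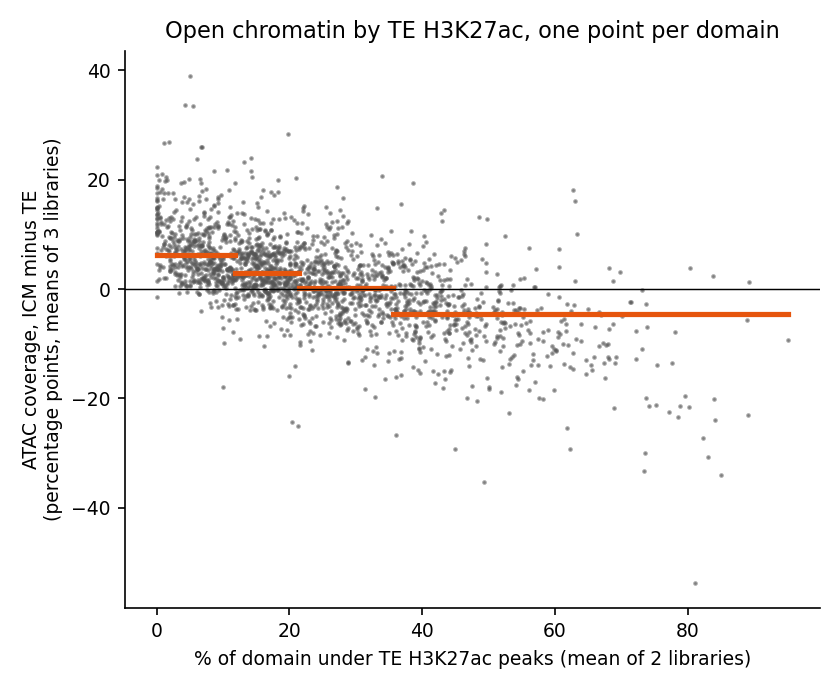
ATAC cover of each of the 2010 domains, ICM minus TE in percentage points of the domain, means of 3 libraries (vertical axis), against the percentage of the domain under TE H3K27ac peaks, mean of 2 libraries (horizontal axis). Points are domains and bars are the medians of 4 groups of about equal size by TE H3K27ac, which go from 6.24 to -4.64 points.

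The 3 domains with the largest ATAC excess in ICM had little TE H3K27ac. At chr14:8071201-8099100, ATAC covered 44.4, 57.7 and 59.0% in ICM and 14.2, 15.6 and 14.5% in TE, the largest excess in ICM (38.9 points), and TE H3K27ac was 6.5 and 3.8%. The next were chr8:110674851-110712600 (33.6 points) and chr6:117392651-117413650 (33.4 points), with TE H3K27ac of 4.2 to 6.0% over both. At chr8:110674851-110712600, TE H3K27me3 covered 43.8 and 55.0% against 0.9 and 1.5% in ICM, whereas at chr6:117392651-117413650 it covered 7.4 and 6.4% against 2.6% in both ICM libraries.

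In the other direction, chr19:56646301-56674450 had ATAC at 81.7, 88.5 and 78.5% in TE and 30.4, 29.3 and 28.1% in ICM, a difference of -53.6 points. Its H3K27ac was high in both, at 81.7 and 80.6% in TE and 82.1 and 71.6% in ICM. The domain thus had like H3K27ac cover and unlike open chromatin in the 2 tissues. At chr16:80454851-80509100 (-35.3 points), H3K27ac covered 49.6 and 49.2% in TE, 38.2 and 34.5% in ICM and 9.9 and 5.3% in MO. At chr25:41455101-41484100 (-33.9 points), H3K4me3 covered 50.5 and 56.9% in TE and 25.0 and 25.9% in ICM. In all 3 domains the whole blastocyst lay nearer to TE than to ICM in H3K4me3, as in the first, with 67.1 and 71.8% in BL, 82.6 and 71.6% in TE and 41.4 and 42.6% in ICM.

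Open chromatin was concentrated in the H3K27ac stretches of the domains and not in the gaps between them. In ICM, ATAC peaks covered 49.9% ± 3.6 (SD, n = 3) of the stretches, 5.53% ± 1.03 of the gaps and 5.98% ± 0.61 of flanks reaching a domain length to either side. A domain held 1 to 129 stretches open in all 3 ICM libraries, with a median of 9. A smaller share of the bases of stretches inside domains lay under ATAC peaks than of stretches of the same width elsewhere, a difference that was not tested. For those under 1 kb, ATAC covered 31.7% ± 2.1 (SD, n = 3) of 22961 stretches inside and 57.4% ± 3.2 of 28447 outside. For those of 2 to 5 kb the values were 60.2% ± 4.3 of 4660 inside and 73.7% ± 3.9 of 2692 outside.

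ICM H3K4me3 and GV H3K27ac were also lower in stretches inside domains than in those of the same width outside. For MO H3K27ac the order depended on width. ICM H3K4me3 covered 44.3% ± 0.3 (SD, n = 2) of the stretches of 2 to 5 kb inside domains and 66.5% ± 0.1 outside. In stretches of this width GV H3K27ac covered 33.9% ± 1.0 inside and 51.2% ± 0.8 outside. MO H3K27ac covered 76.4% ± 2.8 inside and 75.3% ± 1.5 outside. In stretches under 1 kb, MO H3K27ac covered 51.2% ± 5.7 inside and 58.5% ± 3.6 outside. Over stretches of all widths pooled, H3K27ac was higher inside than outside in BL (52.3% ± 2.0 against 46.8% ± 3.1) and in TE (50.0% ± 0.4 against 44.8% ± 1.4). This did not hold at every width. For stretches of 1 to 2 kb both were lower inside, in BL (49.3% ± 2.7 against 55.0% ± 3.5) and in TE (46.6% ± 0.5 against 52.2% ± 1.7). The same order held for those of 2 to 5 kb, in BL (66.5% ± 1.6 against 67.9% ± 2.2) and in TE (61.2% ± 0.2 against 65.2% ± 1.6). For those of 5 kb or more both were higher inside, in BL (76.5 against 73.1%) and in TE (70.2 against 66.0%). That class held 784 stretches inside and only 82 outside. None of these differences was tested.

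**Figure D4:**
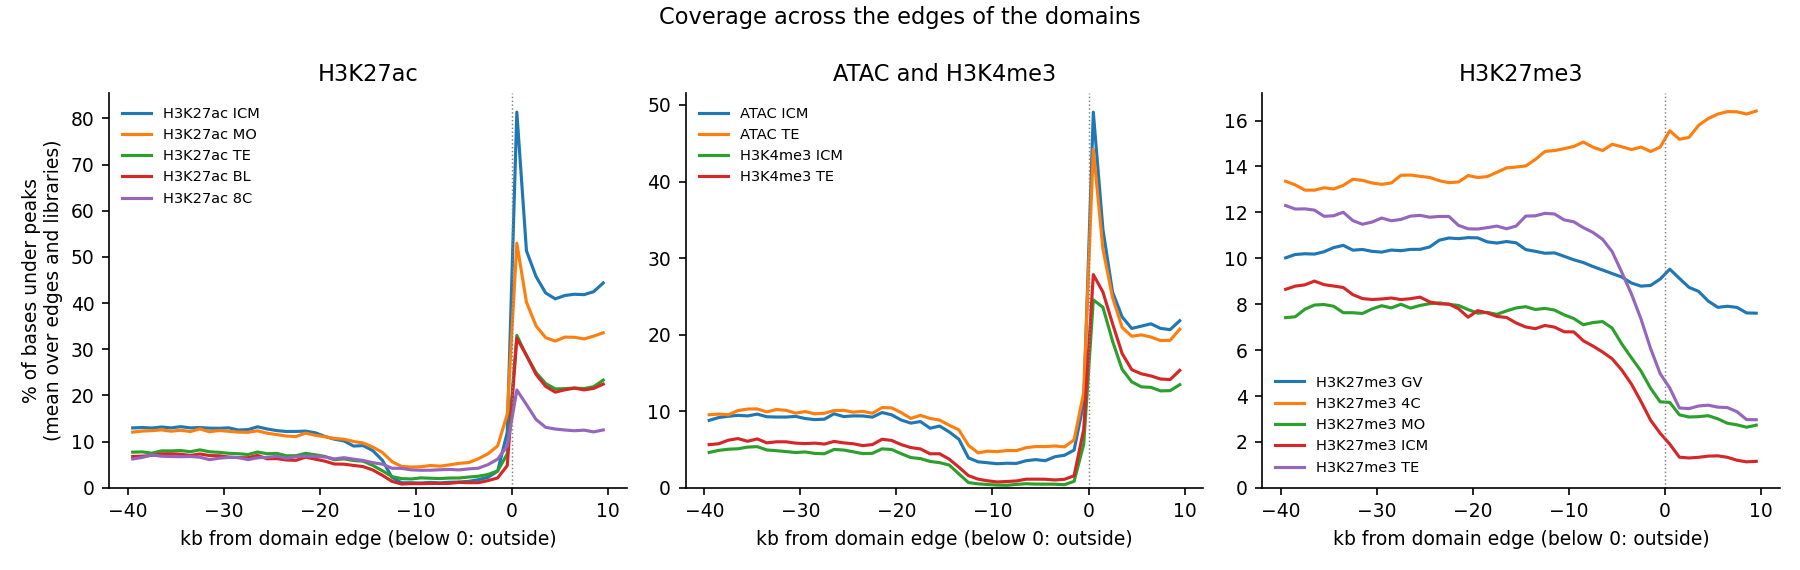
Percentage of bases under peaks (vertical axis), mean over all domain edges and the libraries of a group, by distance from the edge in kb (horizontal axis, below 0 outside the domain). ICM H3K27ac and the dip just outside the edge follow from the rule, which joins neighbours within 12500 bp. H3K27ac, ATAC and H3K4me3 step up at the edge, while H3K27me3 in ICM goes from 8.65% at 40 kb outside to 1.15% at 9 kb inside and in 4C from 13.4 to 16.4%.

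Domains differed in how much H3K4me3 they held in ICM. No H3K4me3 stretch shared by both ICM libraries was found in 216 domains (10.7%), 1 to 2 in 647, 3 to 5 in 708 and 6 or more in 439. The 216 domains without were shorter (median 36.5 kb, against 64.8 kb with 6 or more) and had less H3K27ac in the oocyte, with a median of 1.24% against 19.8%. In 8C the medians were 0 and 15.6%. In 4C they were 0.37 and 5.17%. In MO they were 30.2 and 38.8%, so the domains without H3K4me3 also had H3K27ac in the morula. Length and H3K4me3 count move together here, and their parts were not separated.

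The domains with the highest ICM H3K4me3 carried it from the oocyte on. At chr17:60084701-60105150, H3K4me3 covered 45.0 and 54.3% in GV, 49.1 and 63.1% in 8C, and 94.4 and 89.5% in ICM. At chr19:27523001-27549750 it covered 40.9 and 48.2% in GV, 76.1 and 84.3% in 8C, and 79.8 and 77.2% in ICM. At chr10:69205251-69232450 ICM (66.5 and 67.1%) was above TE (34.6 and 32.9%), and H3K27ac had the same order, with 81.8 and 78.3% in ICM and 17.1 and 14.5% in TE.

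Over all domains H3K4me3 was, like H3K27ac, most enriched from MO on. The log2 ratio was 1.03 ± 0.06 (SD, n = 2) in GV, 1.63 ± 0.03 in 2C, 1.76 ± 0.04 in 4C and 2.03 ± 0.21 in 8C, where the libraries lay apart, and 3.58 ± 0.02 in MO, 3.84 ± 0.03 in BL. A permutation test over the 8 groups grown without inhibitor gave p = 1e-05 for H3K4me3, the smallest these resamples can give (adjusted p = 3.5e-05). In covered share the difference was small, from 11.4 and 13.5% in GV to 14.3 and 16.0% in MO. The ratio moved mainly because H3K4me3 covered 6.11% of the other autosomal sequence in GV and 1.27% in MO. H3K4me3 marked 233 domains in GV (6.96% of tiles), 358 in MO (1.11% of tiles), 329 in ICM (0.974% of tiles) and 457 in TE (1.4% of tiles).

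The repressive marks took the opposite course. Of the domain length, H3K27me3 covered 7.84 and 6.91% in GV, 9.87 and 12.54% in 2C, 18.3 and 16.8% in 4C, and 14.6 and 14.8% in 8C. It covered 2.68 and 2.45% in MO, 2.76 and 2.46% in BL, 2.99% in both TE libraries, and 1.10 and 1.00% in ICM. All libraries from MO on were below all earlier libraries. Relative to other sequence the domains were depleted in GV, enriched from 2C to 8C and depleted from MO on.

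The log2 ratio of H3K27me3 was -0.39 ± 0.13 (SD, n = 2) in GV, 1.67 ± 0.01 in 4C and 1.51 ± 0.0034 in 8C. It was -1.33 ± 0.00056 in MO, -1.92 ± 0.04 in TE and -3.29 ± 0.10 in ICM. For H3K27me3 the same permutation test gave p = 1e-05, again the smallest possible with these resamples (adjusted p = 3.5e-05). Since the domains were chosen by H3K27ac of ICM, low H3K27me3 in ICM and nearby groups is not independent of that choice. Between 8C and MO the ratio differed by -2.84, or 35.0 times the pooled SD of 0.081. In the rest of the autosomes H3K27me3 went the other way, from 5.17% of the sequence in 8C to 6.44% in MO and 10.3% in ICM. In the flanks of the domains it was 11.3% in 8C, 8.29% in MO and 8.86% in ICM.

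**Figure D5:**
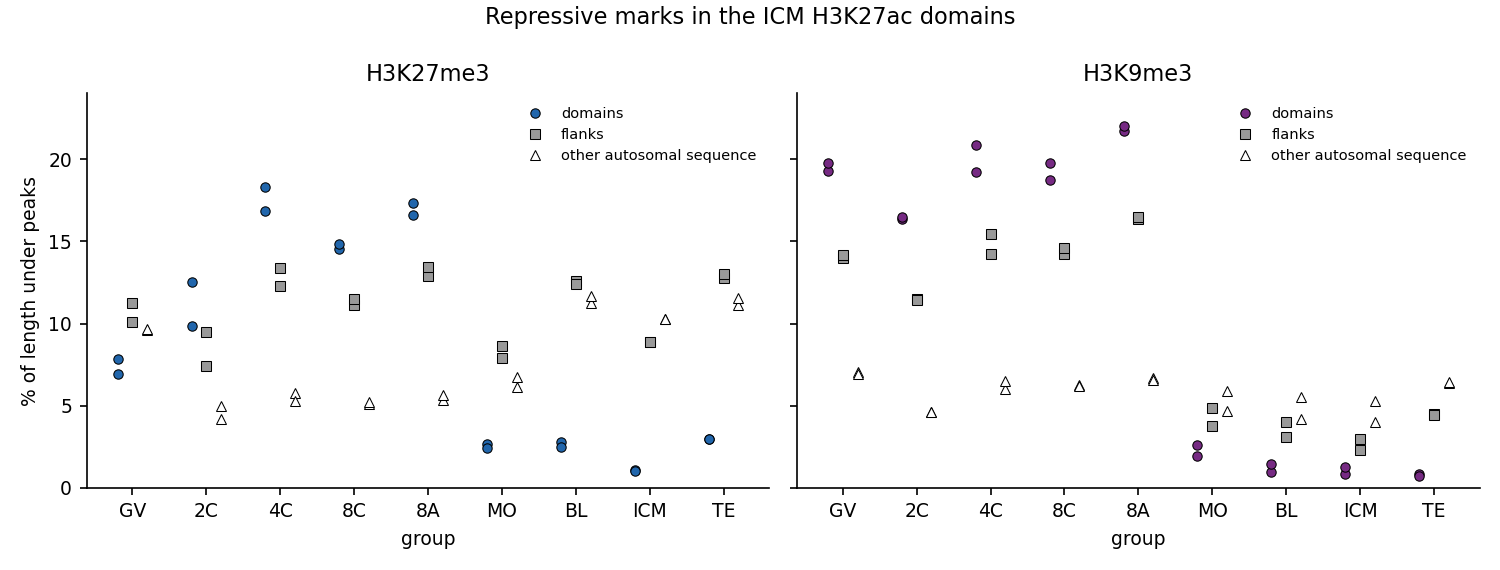
Percentage of length under H3K27me3 peaks (left) and H3K9me3 peaks (right) by group (horizontal axis). Circles are the domains, squares their flanks and triangles other autosomal sequence, with a symbol per library. Domains lie above both references from 2C to 8A and below both from MO on, with ICM H3K27me3 at 1.10 and 1.00% in the domains against 10.2 and 10.3% in other sequence.

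H3K9me3 had a like course, apart from the oocyte. It covered 19.3 and 19.8% of the domain length in GV, 19.2 and 20.9% in 4C and 18.7 and 19.7% in 8C, then 1.93 and 2.63% in MO, 0.86 and 1.26% in ICM and 0.84 and 0.72% in TE. The log2 ratio was 1.48 ± 0.04 (SD, n = 2) in GV, 1.63 ± 0.07 in 8C, -1.22 ± 0.08 in MO, -2.15 ± 0.11 in ICM and -3.05 ± 0.17 in TE. The permutation test for H3K9me3 gave p = 2e-05 (adjusted p = 3.5e-05). The 8A embryos had ratios near those of 8C in both marks, at 1.62 against 1.51 for H3K27me3 and 1.72 against 1.63 for H3K9me3, differences of 1.43 and 1.01 pooled SDs.

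The repressive marks of cleavage stages sat on the same domains and largely on the same bases. H3K27me3 marked 483 domains in 4C (7.88% of tiles), and H3K9me3 marked 560 (8.85% of tiles). Among tiles with ICM H3K27ac outside the domains the shares were 11.9 and 13.4%, against 24.0 and 27.9% of the domains. Both marked 456 domains, which is 94.4% of the first and 81.4% of the second. Of the bases in domains under H3K27me3 in both 4C libraries, 90.1% were also under H3K9me3, against 19.1% in GV and 8.32% in ICM. This was not limited to the domains, since the share outside was 81.8% in 4C.

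Few of the domains marked by H3K27me3 in 4C were still marked in the morula. Of the 483 marked in 4C, 346 were also marked in 8C, 27 in MO and 7 in ICM. In all, H3K27me3 marked 57 domains in MO (8.13% of tiles), 21 in ICM (12.9% of tiles) and 63 in TE (14.6% of tiles), each below the share of tiles. For ICM, 5.03% of the tiles with ICM H3K27ac outside the domains were marked, against 1.04% of the domains. Of the 558 domains that H3K9me3 marked in GV (9.77% of tiles), 461 were also marked in 4C, and H3K9me3 marked 34 domains in MO (6.36% of tiles). How many tiles marked in GV or 4C stayed marked is not given here. These courses are therefore not shown to be particular to the domains.

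Domains that later carried dense H3K27ac could hold both repressive marks in 4C. At chr10:13579651-13623550, which had no TE H3K27ac, H3K27me3 covered 47.4 and 28.6% in 4C and H3K9me3 35.9 and 50.9%, and no peak of either was listed in MO or ICM. At chr19:51594201-51644350, which had the TE H3K27ac given above, H3K27me3 covered 83.4 and 89.3% and H3K9me3 89.3 and 91.3% in 4C, with none of either listed in MO, BL, ICM or TE. At chr28:27450451-27476900 the 4C values were 57.8 and 35.2% for H3K27me3 and 54.1 and 56.3% for H3K9me3, again with none from MO on.

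The 3 domains with the highest ICM H3K27me3 were exceptions to the depletion. At chr23:11251-37800, at the start of the chromosome, peaks of all 4 marks were listed in both GV and ICM. In ICM, H3K27me3 covered 59.3 and 62.3%, H3K9me3 67.6 and 57.1% and H3K27ac 32.2 and 38.0%, and in GV H3K27ac covered 50.1 and 49.5%. H3K4me3 covered 52.0 and 53.1% in GV and 21.1 and 19.0% in BL. Whether reads align uniquely in this interval was not tested, which limits what its cover means. At chr11:99892051-99913900 H3K27me3 covered 88.3 and 85.6% in MO and 57.2 and 81.0% in ICM. At chr18:63488001-63528350 it covered 80.3 and 76.8% in MO and 60.5 and 58.0% in ICM.

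Between ICM and TE, the repressive marks differed in opposite directions. H3K27me3 had the lower ratio in ICM (by -1.37, or 16.9 pooled SDs) and H3K9me3 the higher (by 0.90, or 9.63 pooled SDs). The domains were chosen by H3K27ac of ICM and not of TE, so lower H3K27me3 in ICM is not independent of that choice. Their summed difference of -0.46 did not pass (exact two-sided permutation test, p = 0.556, where the smallest possible is 0.0556). Each mark alone, with 2 libraries against 2, could not reach the threshold. TE H3K27me3 was above ICM in 242 domains (8.73% of tiles) and ICM above TE in 38 (5.66% of tiles), while with lists of the same length these counts were 48 and 13. Without ICM replicate 2, ICM was above TE in 63.

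TE H3K27me3 was found mostly where TE H3K27ac was low. In the group of domains with the lowest TE H3K27ac, TE H3K27me3 covered 6.31 and 6.34% of the length, and in the group with the highest it covered 0.88 and 0.87%. In ICM the values were 1.21 and 1.13% in the lowest group and 0.70 and 0.66% in the highest. TE was above ICM in 105, 71, 45 and 21 domains of the 4 groups from lowest to highest (20.9, 14.1, 8.95 and 4.18%), against 8.73% of all tiles. The medians were 0 in all groups, so most domains had no H3K27me3 in either tissue, and the difference came from a minority of domains.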

How the data were processed

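The data were 81 deposited peak lists of bovine oocytes and embryos, called on each library separately, of CUT&Tag for 4 marks (72 lists) and ATAC-seq (9 lists). Per the submitters' processing notes, the authors worked on the ARS-UCD1.2 build with SICER, SAMtools 1.9, Picard 2.26.10, BWA 0.7.9a, cutadapt 1.8.3 and Trim Galore 0.4.0, while the lists carry the name of epic2. Neither the cutoff nor the control is given in the sources used here. Each peak has a whole-number score that the authors deposited without a name. Its meaning was not established, and it served only to rank peaks within a list. Peaks of the repressive marks start and end at multiples of 200 bp and those of the other assays at multiples of 50 bp. A list held 11209 to 185272 peaks. Lists give no read totals, so depth is unknown and no interval can be given.

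Covered shares were computed on the 50 bp grid over 29 autosomes, whose length was taken from the highest peak end. The value per library was the log2 ratio of covered shares, domains to other autosomal sequence. Group labels were permuted on the between-group sum of squares, with 100000 resamples for marks and all arrangements for ATAC. ICM against TE was tested exactly and two-sided on the summed difference of a pair of assays. Benjamini-Hochberg adjustment covered 7 tests, and the threshold was 0.05. The H3K27ac test left out ICM, and no test included 8A. The pooled SD is the root of the mean within-group variance of an assay. The code was checked on simulated data. Python 3.11.15, NumPy 2.4.6, pandas 2.3.3, SciPy 1.17.1 and matplotlib 3.10.9 were used.

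The members, measures and rules were chosen with earlier results of these data known. Named domains were the 6 with the most shared ICM H3K27ac, the 4 lowest and 4 highest in TE H3K27ac, the 3 highest in GV, 8C and MO H3K27ac, in ICM H3K4me3 and in ICM H3K27me3, the 3 with the largest ATAC difference in each direction among domains whose libraries did not overlap, and those beside the thresholds. Genes and sequences at the domains were not used here, because the gene table at hand is of another assembly, and the planned cell type markers were therefore not analysed. Alternatives were other join distances and size limits, lists shortened by score to the shortest covered length of the assay, flanks as reference, other call thresholds, a replicate block and leaving out each library.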

Additional observations from a re-analysis of the deposited data

How the results depend on the processing

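The 4 stage tests of the marks kept their call under every alternative run, with adjusted p from 2.33e-05 to 0.000665. The ATAC difference between BL, ICM and TE (adjusted p = 0.0417) was lost with lists shortened to a common length (0.556), and ranged from 0.005 to 0.0833 when a library was left out, all by exact permutation tests. The joint ICM against TE difference in ATAC and H3K4me3 (adjusted p = 0.0233, exact permutation test) held in each of 12 runs that left out a library. All ICM libraries lay above all TE libraries in both assays, and leaving out any of them keeps that order. Those runs are therefore a weak check. The joint difference in H3K27me3 and H3K9me3 passed in no run and reversed its sign with flanks as reference (adjusted p = 0.667, exact permutation test). The cause was not tested.

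Replicate numbers are shared across groups, and whether they pair the ATAC libraries was not settled. Over the domains, the replicate differences of groups correlated above 0.1 in 2 of 3 pairs of groups for ATAC (0.0796 to 0.353), 4 of 36 for H3K4me3 (-0.403 to 0.434), 2 of 36 for H3K27ac, none of 36 for H3K27me3 and 3 of 36 for H3K9me3. With a replicate block, the adjusted p was 0.13 for ATAC and 0.0875 for the joint ATAC and H3K4me3 difference, both exact permutation tests, and the block changed no other call.

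Counts depended on thresholds. The number of domains was 1242 when joined at 5 kb, 1220 at 30 kb with 12 kb covered, 652 with shortened lists and 2429 to 2561 with a single ICM library. With 10% in place of 25% of a domain, H3K27ac marked 1135 domains in GV, 447 in 2C, 194 in 4C, 840 in 8C, 766 in 8A, 1678 in BL and 1542 in TE. With 50%, it marked 46, 4, 1, 57 and 25 from GV to 8A in that order, then 314 in MO, 88 in BL and 165 in TE. Shortened lists marked 107 in GV, 50 in 2C, 154 in 8C, 104 in 8A and 517 in MO. A single library marked 86 to 157 in 2C and 16 to 21 in 4C.

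With a gap of at least 5 percentage points, ICM and TE libraries did not overlap in 269 domains (ICM above) and 120 (TE above) for ATAC, in 115 and 329 for H3K4me3, and in 20 (ICM above) for H3K27me3. With shortened lists the counts were 805 and 499 for H3K4me3, 13 and 48 for H3K27me3, and 15 (TE above, from 37) for H3K9me3. Leaving out a library gave 361 to 550 for ATAC with TE above, 42 to 63 for H3K27me3 with ICM above, 70 to 130 for H3K9me3 with ICM above (from 64) and 39 to 61 with TE above. Choices on leaving out libraries from these counts were added after seeing the data. Depth limits all counts, since an unlisted peak may be one that a shallower library missed.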

Other observations

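The rule was limited to autosomes. Applied to the X chromosome in the same way, it gave 26 further intervals over 139 Mb, which are in none of the values above.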
